A study of Mus musculus with 22 samples.

Results

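The 10 genes described here encode ARID, PBAF and accessory subunits of the mammalian SWI/SNF chromatin remodelling complexes: Arid1a, Arid1b, Arid2, Pbrm1, Brd7, Phf10, Brd9, Dpf2, Ss18 and Bcl7a. They were listed by name and not by any measured value, and they are 10 of the 47311 genes to which transcripts of the files could be paired. All 10 passed the filter on low counts in every comparison. Arid1a is the gene that was deleted in these mice.

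SWI/SNF complexes use the ATPase Smarca4 or Smarca2 to move or evict nucleosomes, and they exist in several forms that differ in their accessory subunits. The BAF form carries either ARID1A or ARID1B, the PBAF form carries ARID2 with PBRM1, BRD7 and PHF10, and the non-canonical form (ncBAF) carries BRD9 and has no ARID subunit. In blood formation these complexes are known for roles in the upkeep of stem cells and in lineage choice, and ARID1A is among the chromatin genes most often mutated in cancer.

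The 22 libraries were made from RNA of 4 populations sorted from mouse bone marrow. Knockout (KO) mice were Arid1a f/f;Mx1-Cre+ and wild-type (WT) mice were littermates of the same sex without the transgene, Arid1a f/f;Mx1-Cre-, so that both genotypes carried loxP sites around an exon of Arid1a. Both genotypes also received poly(I:C), which switches on the interferon-inducible Mx1-Cre transgene, as 5 doses of 300 µg at 8 to 14 weeks of age, and cells were sorted 4 weeks later. Mx1-Cre is not limited to a single blood lineage, so the KO cells came from marrow in which other cells had recombined as well. Long-term haematopoietic stem cells (LT-HSC, the CD34-Flt3- part of the Lin-Sca1+Kit+ gate) came from 2 WT and 2 KO mice. Common myeloid progenitors (CMP), granulocyte-macrophage progenitors (GMP) and megakaryocyte-erythroid progenitors (MEP) came from 3 other WT and 3 other KO mice, and each of these mice gave all 3 populations. LT-HSC libraries were prepared with a low-input cDNA amplification kit and the progenitor libraries with a poly-A selection kit. Population and kit cannot be told apart between LT-HSCs and the progenitors, and levels are set side by side there without a test.

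Totals ranged from 40803835 to 65930565 estimated counts per library, and the 10 genes took between 1101 and 26270 estimated counts each in any library. The WT LT-HSC library of mouse S245 stood apart, with 27191 genes at 10 or more counts where the other 3 LT-HSC libraries had 18504 to 22407. Of the markers of each gate, 6 LT-HSC markers summed to 1012 to 1608 TPM (transcript abundance per length, scaled to the same sum in each library) in LT-HSCs and at most 116 elsewhere. The 3 CMP markers summed to 646 to 814 TPM in CMPs and at most 530 elsewhere. The 5 GMP markers summed to 30233 to 44705 TPM in GMPs and at most 4771 elsewhere, and 5 MEP markers to 2856 to 5930 TPM in MEPs and at most 2869 elsewhere. The LT-HSC and GMP sums did not overlap those of other populations, while the highest MEP marker sum outside MEPs, in a WT LT-HSC library, lay just above the lowest KO MEP library. LT-HSC libraries also held markers of other cells. Erythroblast markers summed there to 729 to 1864 TPM in WT and 2158 to 2505 TPM in KO. Neutrophil markers summed to 156 to 1376 TPM in WT, and T cell markers to 22.1 to 52.7 TPM. Mpo was at 2.78 and 407 TPM in the WT LT-HSC libraries. The part of such cells in the LT-HSC levels was not tested.

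Arid1a (ENSMUSG00000007880) lies on the minus strand of chromosome 4 from 133679008 to 133756769 (GRCm38). The deposited values are per transcript and not per exon, so RNA of Arid1a from which the floxed exon is missing is still counted as Arid1a, and the values below are not a measure of the deletion.

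The other genes lie on several chromosomes in the same build. Arid1b (ENSMUSG00000069729) lies on the plus strand of chromosome 17 from 4994332 to 5347656, and Arid2 (ENSMUSG00000033237) on the plus strand of chromosome 15 from 96287518 to 96404992. Of the PBAF genes, Pbrm1 (ENSMUSG00000042323) lies on the plus strand of chromosome 14 from 31019138 to 31121592 and Brd7 (ENSMUSG00000031660) on the minus strand of chromosome 8 from 88331039 to 88362194. Brd9 (ENSMUSG00000057649) lies on the plus strand of chromosome 13 from 73937811 to 73960895, Dpf2 (ENSMUSG00000024826) on the minus strand of chromosome 19 from 5896516 to 5913010, and Bcl7a (ENSMUSG00000029438) on the plus strand of chromosome 5 from 123343834 to 123374992.

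**Figure D1:**
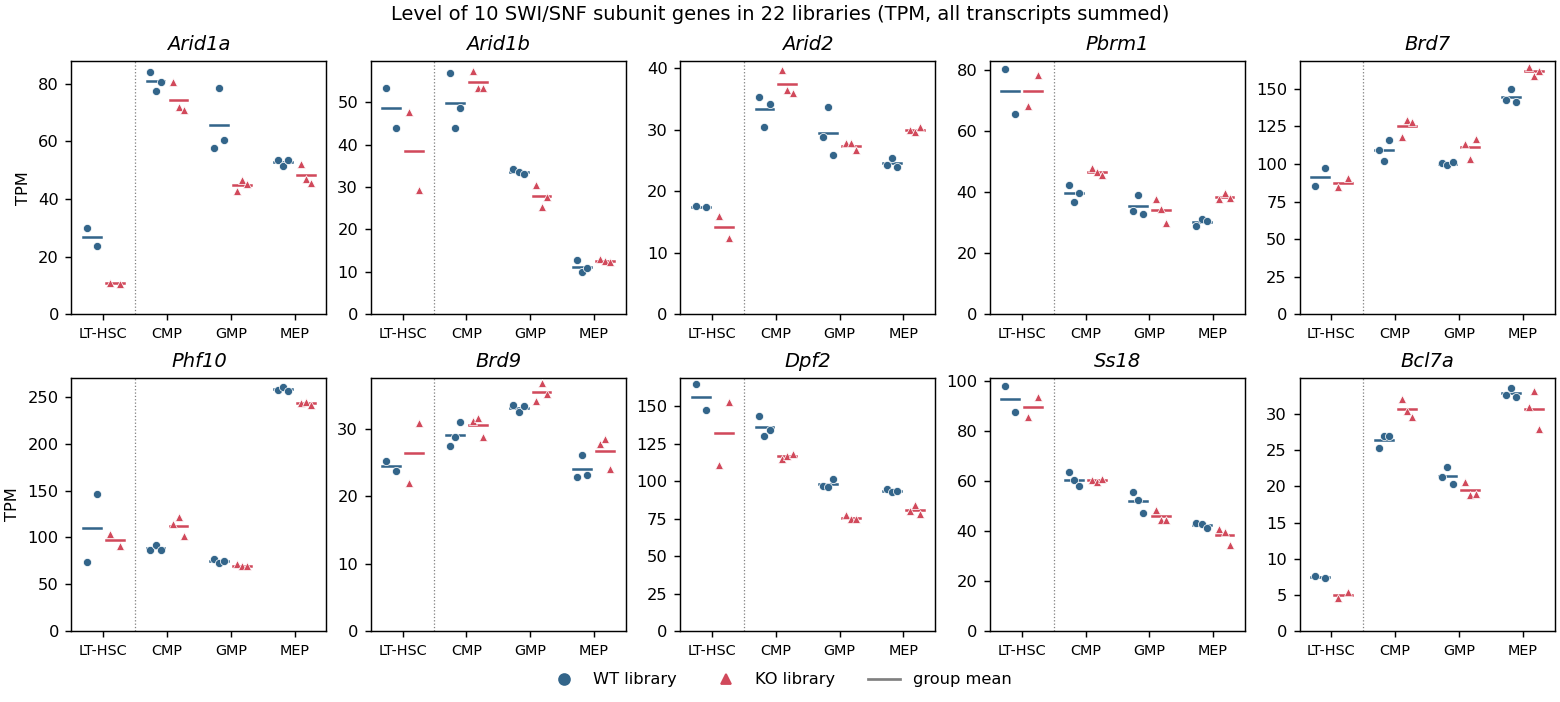
Level of each of the 10 genes in the 22 libraries, in TPM on a linear axis that starts at 0, by population and genotype. Points are single libraries, short lines are group means, and the dotted line separates LT-HSC libraries, which were made with another kit. Arid1b was near 11 TPM in WT MEPs and near 50 TPM in WT CMPs, and Phf10 was near 258 TPM in WT MEPs and near 88 TPM in WT CMPs.

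Arid1a and Arid1b are alternative subunits of BAF, and their levels differed in order between populations. In WT LT-HSCs Arid1a stood at 29.9 and 23.7 TPM and Arid1b at 53.2 and 43.9 TPM. In WT CMPs Arid1a stood at 84.1, 77.5 and 80.6 TPM and Arid1b at 56.8, 43.9 and 48.5 TPM. Every WT LT-HSC library thus had more Arid1b than Arid1a per length, and every WT CMP library had less. WT GMPs had 57.7, 78.3 and 60.5 TPM of Arid1a against 34.1, 33.6 and 33.0 TPM of Arid1b. WT MEPs had 53.4, 51.5 and 53.4 TPM of Arid1a against 12.8, 9.90 and 10.9 TPM of Arid1b. MEPs were the population with the lowest Arid1b, and no MEP library reached the lowest GMP library. Arid2, the ARID subunit of PBAF, stayed in a narrower range, at 33.3 ± 2.52 TPM in WT CMPs, 29.5 ± 3.87 TPM in WT GMPs and 24.5 ± 0.763 TPM in WT MEPs (SD, n = 3 each), and at 17.6 and 17.5 TPM in WT LT-HSCs.

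The remaining subunits spanned a wide range. Phf10, a PHD-finger subunit of PBAF, was at 86.6, 91.9 and 86.1 TPM in WT CMPs, 76.4, 72.8 and 75.2 TPM in WT GMPs, and 257.3, 260.8 and 256.7 TPM in WT MEPs. It was the highest of the 10 genes in MEPs, above 95.7% of the genes with a mean over 1 TPM, and the third highest in WT CMPs and GMPs. Phf10 in WT LT-HSCs was at 74.1 TPM in mouse S245 and 146.6 TPM in mouse S269, so that its WT libraries lay farther apart than its WT and KO means. Dpf2, a PHD-finger subunit of BAF, led in WT LT-HSCs (156 ± 12.2 TPM, SD, n = 2) and in WT CMPs (136 ± 6.89 TPM, SD, n = 3). Brd7, the bromodomain subunit of PBAF, led in WT GMPs with 100.3 ± 1.17 TPM, but its libraries overlapped those of Dpf2 there. Bcl7a, a small subunit shared by all 3 forms, was the lowest of the 10 in LT-HSCs, CMPs and GMPs of both genotypes except KO CMPs, where its mean was 30.7 TPM and Brd9 had 30.6 TPM with overlapping libraries. In MEPs of both genotypes Arid1b was the lowest and overlapped none of the other 9 genes. Brd9 stayed between 22.8 and 36.9 TPM over the 18 progenitor libraries, and Ss18 between 34.6 and 63.7 TPM.

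Most neighbours in the order of levels were separate in WT CMPs and MEPs, and fewer were in WT GMPs. In WT CMPs the order was Dpf2, Brd7, Phf10, Arid1a, Ss18, Arid1b, Pbrm1, Arid2, Brd9 and Bcl7a, and the libraries of Arid2 and Brd9 overlapped while the other 8 neighbouring pairs did not. In WT GMPs the order was Brd7, Dpf2, Phf10, Arid1a, Ss18, Pbrm1, Arid1b, Brd9, Arid2 and Bcl7a, and 5 of the 9 neighbouring pairs overlapped. In WT MEPs the order was Phf10, Brd7, Dpf2, Arid1a, Ss18, Bcl7a, Pbrm1, Arid2, Brd9 and Arid1b, and Arid2 and Brd9 overlapped. These orders are of TPM, which is per length. They depend on the transcripts to which reads were assigned, since short transcripts raise a TPM.

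**Figure D2:**
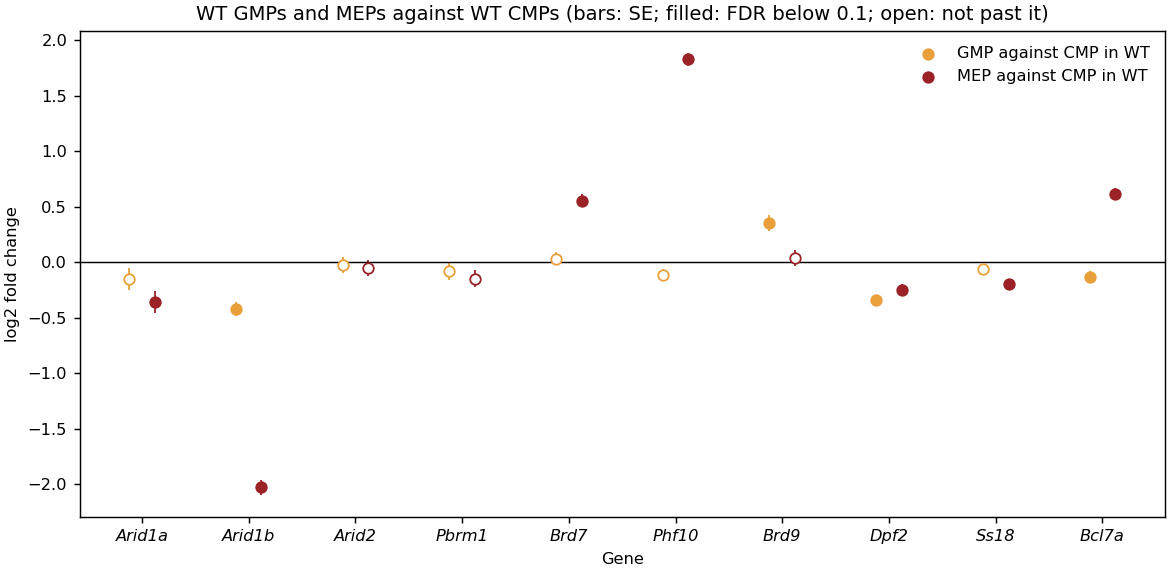
log2 fold change of each gene in WT GMPs and in WT MEPs against WT CMPs on a linear axis of log2 values, with bars of 1 SE; 3 mice gave all 3 populations. Filled points passed a false discovery rate (FDR) of 0.1 and open points did not. Phf10 stood at 1.83 and Arid1b at -2.03 in MEPs against CMPs.

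Which subunits differed between the WT progenitor populations was tested on the counts, with the mouse as a block. In MEPs against CMPs 3 of the 10 genes were higher and 4 lower, in a comparison that called 72.4% of all 17476 genes (34.4% higher and 38% lower). Phf10 was higher in MEPs, with a log2 fold change of 1.83 ± 0.06 (SE, adjusted p = 5.31e-08), or 3.55-fold. Bcl7a was higher by 0.62 ± 0.05 (adjusted p = 9.11e-06), and Brd7 by 0.55 ± 0.06 (adjusted p = 4.67e-05). All 3 MEP libraries of each of these genes lay above all 3 CMP libraries. Arid1b was 4.08-fold lower in MEPs (log2 fold change -2.03 ± 0.07, adjusted p = 7.06e-08), and Arid1a 1.28-fold lower (-0.36 ± 0.10, adjusted p = 0.0108). Dpf2 and Ss18, an accessory subunit of BAF and ncBAF known from the fusion oncogene of synovial sarcoma, were also lower, by log2 fold changes of -0.25 and -0.20. Arid2, Pbrm1 and Brd9 had log2 fold changes of -0.05, -0.15 and 0.04 and did not pass.

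In GMPs against CMPs 1 of the 10 genes was higher and 3 lower, where 45.3% of all genes were called (21% higher and 24.2% lower). Brd9, the bromodomain subunit of ncBAF, was higher in GMPs, at 0.35 ± 0.07 (adjusted p = 0.00443). Arid1b was lower at -0.42 ± 0.06 (adjusted p = 0.000933) and Dpf2 at -0.34 ± 0.05 (adjusted p = 0.000726). Bcl7a passed at -0.13 ± 0.05 (adjusted p = 0.0776), although its GMP and CMP libraries overlapped in CPM, the count scaled to library size by edgeR's TMM method. That call was lost without any 1 of the 3 mice (adjusted p-values from 0.158 to 0.404), with DESeq2 (0.346), with median-of-ratios size factors (0.204), without the filter (0.118) and without the block (0.101). In MEPs against GMPs 3 were higher and 4 lower, where 72.6% of all genes were called (36.1% higher and 36.5% lower). Phf10 was 3.85-fold higher and Arid1b 3.05-fold lower in MEPs than in GMPs, with adjusted p-values of 1.33e-08 and 8.82e-08. Brd9 was lower at -0.31 ± 0.07 (adjusted p = 0.00399), so that GMPs had the highest Brd9 of the 3 progenitor populations. Arid1a passed at -0.20 ± 0.10 (adjusted p = 0.0993), with overlapping libraries, and did not pass without mouse 305 (adjusted p = 0.153) or without mouse 309 (adjusted p = 0.229).

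The sequence upstream of Phf10 is shown because Phf10 had the largest rise of the 10 genes from CMPs to MEPs. Phf10 (ENSMUSG00000023883) lies on the minus strand of chromosome 17 from 14945009 to 14961273 (GRCm38), and the 237 bases directly upstream of its annotated exons lie at chr17:14961274-14961510. The letters are from RefSeq's GRCm38.p6 table of start sites, which had a window for 7 of the 10 genes, and capitals mark a match on either strand to 1 of the 3 motifs given after it.
Phf10 upstream: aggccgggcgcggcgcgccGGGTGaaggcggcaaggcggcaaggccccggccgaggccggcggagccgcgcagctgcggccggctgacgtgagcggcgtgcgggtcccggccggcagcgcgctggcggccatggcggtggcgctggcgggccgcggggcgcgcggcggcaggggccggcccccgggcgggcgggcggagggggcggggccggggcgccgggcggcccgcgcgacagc
The 300-base window around the Phf10 start, of which these bases are the outer part, held 1 match to CACCC or its reverse complement GGGTG, which 57.5% of 32851 such windows held. It held no GATAA or TTATC, which 25.4% of windows held, and no GGAA or TTCC, which 96% held. It had 62 CpG dinucleotides, against a median of 7, and 16 of the 32851 windows had as many or more. The Arid1b window held 42 CpG dinucleotides, 3 matches to CACCC or GGGTG and no GATAA or TTATC. These are descriptions of letters in a window, and binding was not measured in these files.

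Among the 20 other SWI/SNF subunits, 8 were higher and 5 lower in MEPs against CMPs and none higher and 8 lower in GMPs against CMPs, in comparisons that called 72.4% and 45.3% of all genes. Their median log2 fold changes were 0.06 and -0.21 where the medians over all genes were -0.04 and -0.01. The members' own medians in the same comparisons were -0.10 and -0.10. Of 11 tested of 12 other ARID-domain genes, 1 was higher and 7 were lower in MEPs against CMPs, with a median of -0.41, and 4 were higher and 1 lower in GMPs against CMPs, with a median of 0.14.

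**Figure D3:**
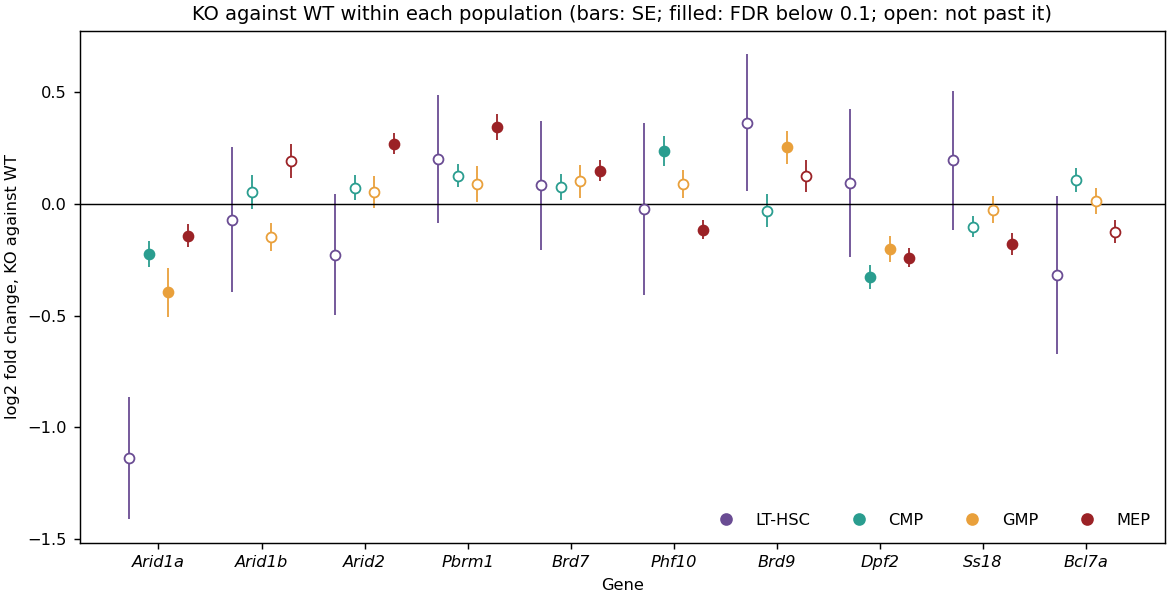
log2 fold change of each gene in KO against WT cells within each population, on a linear axis of log2 values, with bars of 1 SE; n = 2 per genotype for LT-HSC and 3 for CMP, GMP and MEP. Filled points passed an FDR of 0.1 and open points did not. Arid1a lay below 0 in all 4 populations, at -1.14 in LT-HSCs and between -0.40 and -0.14 in the progenitors.

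KO was compared with WT within each population, to see which subunits changed when Arid1a was deleted. Arid1a itself was at 119.3 and 110.9 CPM in WT LT-HSCs and 50.9 and 53.6 CPM in KO LT-HSCs. In CMPs it was at 451.3, 426.3 and 448.0 CPM in WT and 402.0, 365.2 and 367.5 CPM in KO. The KO libraries lay below the WT libraries in both populations, on the CPM scale used by the test. In GMPs Arid1a was at 303.1, 404.8 and 331.1 CPM in WT and 239.2, 280.9 and 269.4 CPM in KO. In MEPs it was at 301.5, 289.9 and 303.8 CPM in WT and 285.2, 256.7 and 268.1 CPM in KO. No KO library overlapped a WT library of its own population on this scale, while in TPM the CMP library of KO mouse 301 (80.4 TPM) lay above that of WT mouse 305 (77.5 TPM).

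The estimate of the Arid1a difference varied between populations, and its calls differed in firmness. The log2 fold change was -1.14 ± 0.27 in LT-HSCs (SE, adjusted p = 0.421), which did not pass with 2 libraries a group. It passed with DESeq2 (-1.11, adjusted p = 0.0879). Leaving out 1 mouse left a group of 1 library, for which the spread of the other group was assumed. Such fits passed without WT mouse S245 (-1.06, adjusted p = 0.00911) and without WT mouse S269 (-1.23, adjusted p = 0.000185), where the spread came from the KO pair alone, and did not pass without KO mouse S244 (-1.08, adjusted p = 0.879) or KO mouse S270 (-1.15, adjusted p = 0.99996), where it came from the WT pair. In CMPs the log2 fold change was -0.22 ± 0.06 (adjusted p = 0.0284), and without WT mouse 309 it was -0.22 with an adjusted p of 0.106. In GMPs it was -0.40 ± 0.11 (adjusted p = 0.0246), and it passed without each library in turn, with adjusted p-values from 0.0139 to 0.0907. In MEPs it was -0.14 ± 0.05 (adjusted p = 0.0836), and it did not pass without WT mouse 300, KO mouse 304, KO mouse 308 or WT mouse 309 (adjusted p-values from 0.184 to 0.244). The interaction of genotype with population did not pass for Arid1a in any of the 3 pairs of progenitor populations (adjusted p-values of 0.492, 0.818 and 0.243). Unequal sizes were thus not shown among the progenitors, and LT-HSCs were not tested against them.

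In LT-HSCs none of the 10 genes passed, where edgeR's test called 0.0792% of 22733 genes. At an unadjusted p under 0.05 there was 1 of the 10 genes, Arid1a, and DESeq2 called 1, also Arid1a, where it called 1.06% of all genes. The other 9 log2 fold changes lay between -0.32 for Bcl7a and 0.36 for Brd9, with SEs of 0.27 to 0.38, so a change of the sizes seen in the progenitors could not be detected here. The median over the 10 genes was 0.03, and over all genes -0.16. Leaving out WT mouse S245 turned the sign for Arid1b (0.00053), Brd7 (-0.12) and Dpf2 (-0.0028). Leaving out KO mouse S270 turned it for Arid1b (0.16), Dpf2 (-0.16) and Phf10 (0.047). For Phf10 the log2 fold change was 0.71 (adjusted p = 0.0781) without WT mouse S269 and -0.50 (adjusted p = 0.505) without WT mouse S245. The fits without a WT mouse have a single WT library and take their spread from the 2 KO libraries. The WT libraries themselves lay far apart for Phf10.

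In CMPs 1 of the 10 genes was higher in KO and 2 were lower, where 23.4% of 17214 genes were called (10.6% higher and 12.8% lower). Dpf2 was at 183.2, 182.3 and 178.1 CPM in WT and 137.4, 148.8 and 147.1 CPM in KO, with all KO libraries below all WT libraries. Its log2 fold change was -0.33 ± 0.05 (SE, adjusted p = 0.0032), and it passed without each library in turn. Phf10 was at 94.8, 101.5 and 99.2 CPM in WT and 117.6, 124.5 and 105.6 CPM in KO, again without overlap. Its log2 fold change was 0.24 ± 0.07 (adjusted p = 0.0441), and it did not pass without WT mouse 300, WT mouse 309, KO mouse 301 or KO mouse 304, with adjusted p-values from 0.116 to 0.136. Pbrm1, the polybromo subunit of PBAF, had a log2 fold change of 0.12 (adjusted p = 0.141), and 0.13 with an adjusted p of 0.0665 when WT and KO mice were paired as a block. Arid1b and Arid2 had log2 fold changes of 0.05 and 0.07 in CMPs and did not pass.

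Markers of other cells also moved in KO CMPs. Of 5 erythroblast markers all 5 were higher in KO CMPs, and their summed level was 43.4 to 94.8 TPM in WT and 439.6 to 644.9 TPM in KO. Of 5 MEP markers 3 were higher in KO CMPs, and their sums were 990.5 to 1059 TPM in WT and 1113 to 1326 TPM in KO. Of 5 GMP markers 4 were lower, with sums of 3908 to 4771 TPM in WT and 1703 to 2650 TPM in KO. All 4 basophil and mast cell markers and all 3 megakaryocyte markers were lower, the latter with sums of 680.5 to 1007 TPM in WT and 474.4 to 502.1 TPM in KO. Of 5 neutrophil markers 3 were lower, and of 6 LT-HSC markers 2 were higher and 1 lower. Single CMP and monocyte and macrophage markers were higher, and a single B cell marker was lower. Fewer cells of a type and less RNA per cell cannot be told apart in bulk samples, and the part of these cells in the change of Phf10 was not tested.

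In GMPs 1 of the 10 genes was higher in KO and 2 were lower, where 33.9% of 16383 genes were called (17.5% higher and 16.3% lower). Brd9 was at 52.7, 50.5 and 54.5 CPM in WT and 57.5, 67.4 and 62.9 CPM in KO, without overlap. Its log2 fold change was 0.25 ± 0.07 (SE, adjusted p = 0.0336), which did not pass without WT mouse 305 (0.21, adjusted p = 0.11) or with library totals in place of TMM (0.15, adjusted p = 0.173). Dpf2 was at 128.7, 116.9 and 126.8 CPM in WT and 109.3, 107.3 and 107.1 CPM in KO, with a log2 fold change of -0.20 ± 0.06 (adjusted p = 0.0288). Dpf2 was thus lower in KO in both CMPs and GMPs. Arid1b had a log2 fold change of -0.15 ± 0.06 (adjusted p = 0.115), all KO libraries below all WT libraries, and an adjusted p of 0.0372 with the pairs as a block. In the same libraries 4 of 5 GMP markers were higher in KO (sums of 30233 to 35458 TPM in WT and 39520 to 44705 TPM in KO), 3 of 5 neutrophil markers were higher and 1 lower (103.4 to 201.1 TPM and 238.3 to 913.4 TPM), and all 4 basophil and mast cell markers were lower (733.1 to 1206 TPM and 116.4 to 168.3 TPM). Of 5 MEP markers 3 were lower in KO GMPs (46.8 to 50.9 TPM and 26.7 to 31.0 TPM), of 6 LT-HSC markers 3 were lower and 1 higher (12.4 to 13.7 TPM and 8.03 to 8.53 TPM), and of 3 megakaryocyte markers 2 were lower (97.7 to 210.5 TPM and 59.9 to 79.7 TPM). Their part in the changes of Brd9 and Dpf2 was not tested.

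In MEPs 3 of the 10 genes were higher in KO and 4 were lower, where 29.4% of 15777 genes were called (14% higher and 15.4% lower). The genes that were higher are all PBAF subunits. Pbrm1 was at 133.1, 151.7 and 149.1 CPM in WT and 184.2, 182.2 and 183.8 CPM in KO, a log2 fold change of 0.34 ± 0.06 (SE, adjusted p = 0.00422). Arid2 was at 143.0, 150.3 and 149.0 CPM in WT and 176.6, 173.8 and 182.6 CPM in KO, a log2 fold change of 0.27 ± 0.05 (adjusted p = 0.00431). Neither gene had overlapping groups, and both passed without each library in turn. Brd7 was at 181.5, 179.1 and 185.6 CPM in WT and 197.2, 196.9 and 210.8 CPM in KO, a log2 fold change of 0.15 ± 0.05 (adjusted p = 0.058) that did not pass without WT mouse 300 or without any 1 of the 3 KO mice, with adjusted p-values from 0.116 to 0.178. The PBAF subunit Phf10 was in contrast lower, at 293.1, 305.5 and 307.5 CPM in WT and 274.4, 276.3 and 284.7 CPM in KO, a log2 fold change of -0.12 ± 0.04 (adjusted p = 0.0905). That call did not hold without any single library (adjusted p-values from 0.105 to 0.326).

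Dpf2 was also lower in KO MEPs, at 130.9, 132.4 and 131.9 CPM in WT and 111.0, 110.7 and 112.6 CPM in KO. Its log2 fold change was -0.24 ± 0.04 (SE, adjusted p = 0.00464), and it passed without each library in turn. Dpf2 was therefore the only gene of the 10 besides Arid1a that passed in all 3 progenitor populations, 1.25-fold lower in CMPs, 1.15-fold in GMPs and 1.18-fold in MEPs. The 3 tests are of libraries from the same 6 mice. Ss18 was lower at -0.18 ± 0.05 (adjusted p = 0.0374), with 96.7, 95.5 and 94.1 CPM in WT and 87.9, 85.2 and 79.7 CPM in KO. Arid1b had a log2 fold change of 0.19 ± 0.08 (adjusted p = 0.119), with overlapping libraries, and an adjusted p of 0.0292 with the pairs as a block. Bcl7a had a log2 fold change of -0.13 (adjusted p = 0.123, and 0.0897 with the block), and Brd9 one of 0.12 (adjusted p = 0.281). With the block 9 of the 10 genes passed in MEPs, where that fit called 33.3% of all genes, and 4 each passed in CMPs and GMPs, where it called 31.3% and 43.7%. In LT-HSCs none passed with the block, where it called 0.506%.

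In KO MEPs 4 of 5 erythroblast markers were higher, with sums of 130.6 to 360.5 TPM in WT and 512.4 to 881.3 TPM in KO. Of the 5 MEP markers 2 were higher and 1 lower, and their sums were 4548 to 5930 TPM in WT and 2856 to 3557 TPM in KO. Car1 made up most of these sums, at 3521 to 5013 TPM in WT and 1665 to 2432 TPM in KO. Klf1 (313 to 382 and 437 to 492 TPM) and Epor (175 to 185 and 237 to 254 TPM) lay higher in KO. Gata1 and Zfpm1 overlapped. Of 4 basophil and mast cell markers 3 were lower, and the summed level of these was at most 7.02 TPM in either genotype. Of 6 LT-HSC markers 2 were higher, as were 2 of 3 tested monocyte and macrophage markers and 1 of 3 megakaryocyte markers. A single neutrophil and a single GMP marker were lower. The part of these shifts in the changes of Pbrm1, Arid2, Brd7, Dpf2 and Ss18 was not tested.

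Whether the KO effect differed between progenitor populations was tested with the interaction of genotype with population, in which each mouse was a block. The values are the log2 fold change of KO against WT in the first named population less that in the other. For MEPs less CMPs 2 of the 10 genes passed, where 13% of 18523 genes were called (5.67% positive and 7.37% negative), and both were negative. Phf10 stood at -0.35 ± 0.08 (SE, adjusted p = 0.0125): it was higher in KO CMPs and lower in KO MEPs. Bcl7a stood at -0.24 ± 0.07 (adjusted p = 0.0393), with KO effects of 0.11 in CMPs and -0.13 in MEPs that did not pass on their own. The call of Phf10 held without each mouse in turn, and that of Bcl7a did not hold without mouse 300, 301 or 308 (adjusted p-values from 0.16 to 0.175). For MEPs less GMPs 2 of the 10 passed, where 26.8% of all genes were called (12.2% positive and 14.6% negative). Arid1b stood at 0.34 ± 0.09 (adjusted p = 0.0132), with KO effects of -0.15 in GMPs and 0.19 in MEPs, and Phf10 at -0.21 ± 0.08 (adjusted p = 0.0779). Arid1b passed without each mouse in turn, whereas Phf10 did not pass without mouse 300, 301, 304, 305 or 309 (adjusted p-values from 0.117 to 0.32). For GMPs less CMPs 1 of the 10 passed, where 21% of all genes were called (10.9% positive and 10% negative): Brd9 at 0.29 ± 0.09 (adjusted p = 0.0463), which did not pass without mouse 304, 305, 308 or 309 (adjusted p-values from 0.131 to 0.164) or with library totals in place of TMM (0.15, adjusted p = 0.283). The interactions of Arid2 and Pbrm1 for MEPs against CMPs were 0.20 and 0.22 with adjusted p-values of 0.24 and 0.241, so their higher level in KO MEPs was not shown to differ from their KO effect in CMPs.

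**Figure D4:**
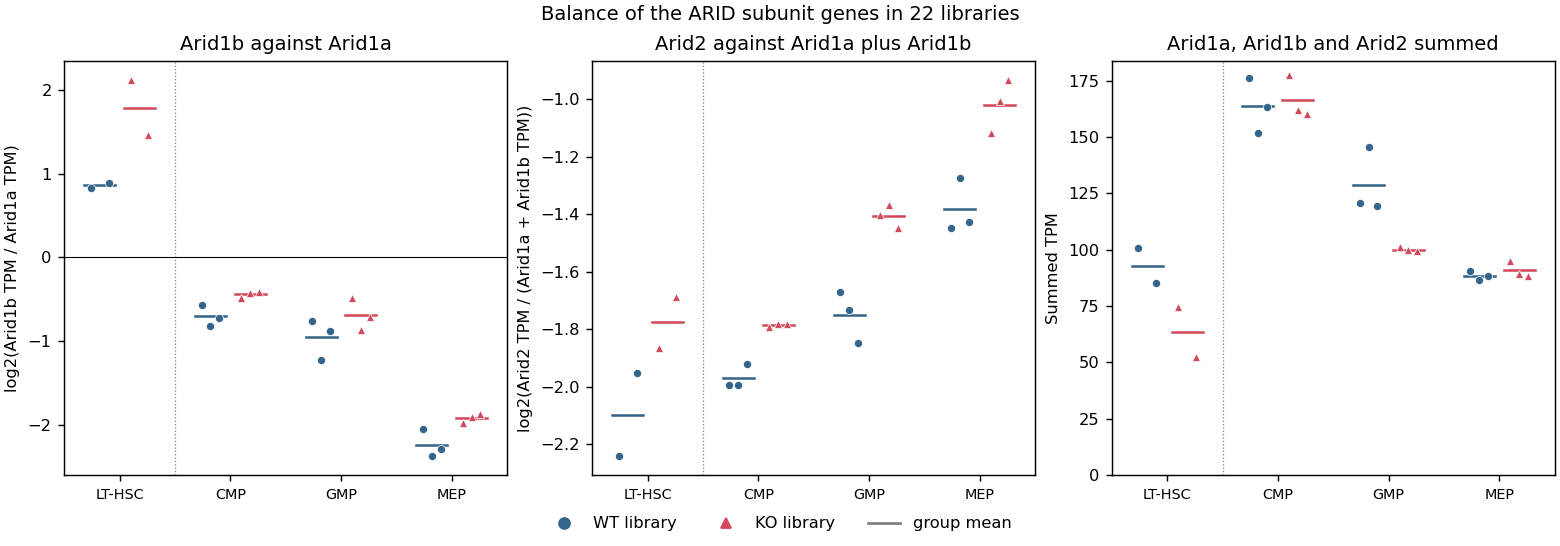
Balance of Arid1a, Arid1b and Arid2 in the 22 libraries: log2 ratio of Arid1b to Arid1a TPM (left, 0 marks equal TPM), log2 ratio of Arid2 to the sum of Arid1a and Arid1b TPM (middle) and the summed TPM of all 3 genes (right). Points are libraries and short lines are group means. The mean of both ratios was higher in KO in each of the 4 populations, and both have the deleted gene Arid1a in the denominator.

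The balance of the ARID subunits was described by ratios of TPM. Arid1a, the deleted gene, is in the denominator of both ratios, so a lower Arid1a alone raises them. The mean of Arid1b itself was 48.6 TPM in WT and 38.5 TPM in KO LT-HSCs, and 49.8 and 54.6 TPM in CMPs. In GMPs it was 33.6 and 27.8 TPM (173.9 and 156.7 CPM), and in MEPs 11.2 and 12.7 TPM. In WT LT-HSCs Arid1b was at 1.78 and 1.85 times the TPM of Arid1a, and in KO LT-HSCs at 4.35 and 2.75 times. In WT CMPs it was at 0.68, 0.57 and 0.60 times and in KO CMPs at 0.71, 0.74 and 0.75 times. The groups did not overlap in either population. WT GMPs had ratios of 0.59, 0.43 and 0.54, which overlapped those of KO GMPs at 0.71, 0.55 and 0.61. In MEPs they were 0.24, 0.19 and 0.20 in WT and 0.25, 0.27 and 0.27 in KO, without overlap. The KO minus WT difference of the log2 ratio was 0.93 in LT-HSCs (exact permutation p = 0.333, two-sided, the smallest that 2 against 2 allows). It was 0.26 in CMPs and 0.32 in MEPs (exact permutation p = 0.1 each, the smallest that 3 against 3 allows) and 0.26 in GMPs (exact permutation p = 0.2), and in GMPs it was 0.13 without WT mouse 305 and 0.16 without KO mouse 301. In LT-HSCs it was 0.60 without KO mouse S244 and 1.26 without KO mouse S270. Within the pairs of WT and KO mice that were used as a block, KO less WT was 0.27, 0.35 and 0.16 in GMPs. Over the 4 populations KO was the higher in all 11 such comparisons, by 0.07 to 1.29. These are not 11 separate pairs of mice, since 3 pairs each gave CMPs, GMPs and MEPs and 2 gave LT-HSCs. The labels do not give the pairs.

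The ratio of Arid2 to the sum of Arid1a and Arid1b was also higher in KO, but Arid2 itself was not higher in every population. Mean Arid2 was 17.5 TPM in WT and 14.3 TPM in KO LT-HSCs, and 29.5 and 27.4 TPM in GMPs. In these populations the ratio was thus higher only through its denominator. In CMPs and MEPs mean Arid2 was higher in KO. The log2 fold changes of Arid2 in edgeR's test were -0.23 in LT-HSCs, 0.07 in CMPs, 0.05 in GMPs and 0.27 in MEPs. Only that in MEPs passed. The log2 ratio was -1.97 ± 0.04 in WT and -1.79 ± 0.0052 in KO CMPs, -1.75 ± 0.09 and -1.41 ± 0.04 in GMPs, and -1.38 ± 0.09 and -1.02 ± 0.09 in MEPs (SD, n = 3 each, no overlap in any of the 3; exact permutation p = 0.1 each). In LT-HSCs it was -2.10 ± 0.20 in WT and -1.78 ± 0.12 in KO (SD, n = 2 each), a difference of 0.32 (exact permutation p = 0.333) that was 0.18 without WT mouse S245 and 0.11 with estimated counts in place of TPM. Averaged over the 3 populations of each mouse, it was 0.30 higher in KO, and the ratio of Arid1b to Arid1a was 0.28 higher (exact permutation p = 0.1 each, 3 against 3 mice). None of these tests could reach 0.05. Arid1a made up 59.6% of the summed TPM of the 3 genes in WT MEPs and 53.0% in KO MEPs, and Arid2 made up 27.7% and 33.0%. In GMPs the sum of the 3 genes was 119.4 to 145.5 TPM in WT and 99.4 to 101.2 TPM in KO, without overlap. In MEPs it was 86.8 to 90.5 TPM in WT and 88.5 to 95.2 TPM in KO. The lower sum in KO GMPs depends in part on the scale. Mean Arid2 there was lower in KO in TPM, but stood at 151.2 CPM in WT and 156.7 CPM in KO. Arid1a and Arid1b had lower means in KO GMPs on both scales. Arid1b was not called higher in KO in any of the 4 populations by edgeR's test without the block.

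Of the 20 other SWI/SNF subunits, 1 of 19 tested was higher and none lower in KO CMPs, where 23.4% of all genes were called. In KO GMPs 2 were higher and 2 lower of 19, where 33.9% of all genes were called, and in KO MEPs 3 were higher and 2 lower of 20, where 29.4% were called. In KO GMPs the ATPases Smarca4 (0.23, adjusted p = 0.0273) and Smarca2 (0.23, adjusted p = 0.0806) were higher. Dpf3, a PHD-finger relative of Dpf2, was lower (-1.53, adjusted p = 0.00337), at low means of 1.41 CPM in WT and 0.489 CPM in KO. In KO MEPs the Dpf2 relatives Dpf1 (1.19, adjusted p = 0.0114) and Dpf3 (0.54, adjusted p = 0.0158) were higher, opposite in sign to Dpf2. Both were far below Dpf2 in level. Dpf1 had means of 1.13 CPM in WT and 2.57 CPM in KO, Dpf3 9.18 and 13.3 CPM, and Dpf2 132 and 111 CPM. Bcl11a, a transcription factor that copurifies with BAF, was higher in KO CMPs (0.39, adjusted p = 0.00141) and lower in KO GMPs (-0.36, adjusted p = 0.00821). Smarcc1 (0.15) and Smarcb1 (-0.17), both core subunits, moved in opposite directions in KO MEPs.

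Of the other ARID-domain genes Arid3b, a DNA-binding factor, was higher in KO in all 3 progenitor populations, at 1.27 in CMPs, 1.27 in GMPs and 2.17 in MEPs (adjusted p = 0.000531, 0.000113 and 4.07e-05). Arid3a was lower in KO CMPs (-0.42) and KO MEPs (-0.32) and higher in KO GMPs (0.72). Of 11 tested, 2 were higher and 1 lower in CMPs, 3 and 1 in GMPs, and 4 and 2 in MEPs, and none passed in LT-HSCs. The shares of all genes called were 23.4%, 33.9%, 29.4% and 0.0792% in these populations in turn.

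**Figure D5:**
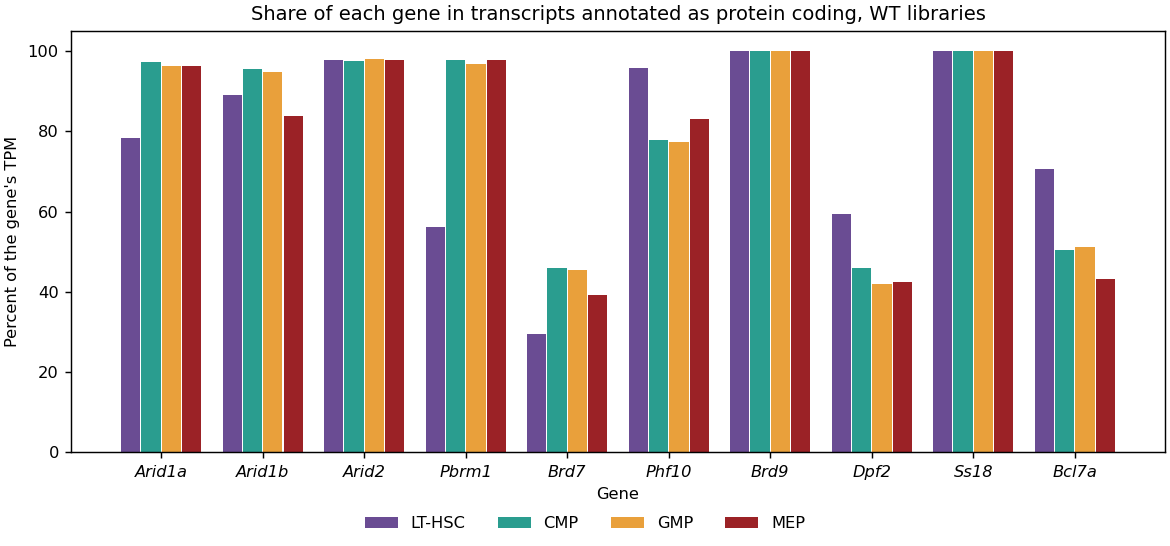
Share of each gene's TPM that lay on transcripts annotated as protein coding, in percent on an axis from 0, for the WT libraries of each population. Each bar is the coding share of the TPM summed over the libraries of a group. Pbrm1 had 56.1% in LT-HSCs and 96.9% to 97.9% in the progenitors, and Brd7 had 29.4% in LT-HSCs and 39.1% to 45.9% in the progenitors.

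The transcripts behind these levels differed between genes and, for some genes, between LT-HSCs and CMPs, whose kits also differed. Brd9 had a single annotated transcript in the files and Pbrm1 had 17. In WT CMPs the full-length Pbrm1-207 (7907 bases) took 64.2% of the gene's TPM and the short processed transcript Pbrm1-214 (871 bases) 1.27%, whereas in WT LT-HSCs they took 3.88% and 40.4%. Pbrm1 accordingly had 73.1 ± 10.4 TPM in WT LT-HSCs (SD, n = 2) and 39.6 ± 2.84 TPM in WT CMPs, but 102.4 and 185.2 mean CPM, so the order of these populations depended on the scale. Arid1a showed the smaller shift of 78.4% of TPM on protein-coding transcripts in WT LT-HSCs against 97.4% in WT CMPs.

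Non-coding models carried much of Brd7, Dpf2 and Bcl7a. Brd7-203, a processed transcript of 511 bases, took 25.7% of the TPM of Brd7 in WT CMPs and 54.1% in WT LT-HSCs. In KO GMPs the coding Brd7-201 took 38.0 ± 0.74% against 45.3 ± 4.27% in WT (SD, n = 3), and with an offset for effective length the log2 fold change of Brd7 in GMPs was 0.28 (adjusted p = 0.00967) in place of 0.10 (adjusted p = 0.378). For Dpf2, Dpf2-201, annotated as a target of nonsense-mediated decay, took 27.1 ± 1.51% of TPM in WT CMPs and 28.1 ± 2.47% in KO CMPs, and the coding Dpf2-202 36.4% and 36.6%. In GMPs Dpf2-201 took 28.7 ± 3.07% in WT and 29.9 ± 0.76% in KO, and in MEPs 29.4 ± 1.29% and 32.4 ± 4.05% (SD, n = 3). These shares were not tested. Phf10 shares 470 exonic bases with 1600012H06Rik on the opposite strand (9.17 to 17.1 TPM) and Pbrm1 15 with Gnl3, and whether the counting used strand is not given in the sources used here.

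Genes whose log2 CPM was most like that of the ARID genes over the 18 progenitor libraries were named by the highest Pearson r among 9119 protein-coding genes with a mean of at least 10 CPM. For Arid1b these were Elf1, an ETS transcription factor, at r = 0.995, Fam49a at 0.993 and Ccser2 at 0.992. For Arid1a they were Pkd1 (0.910), Rufy2 (0.907) and Sfi1 (0.902), and for Arid2 they were Atad2b (0.930), Pbrm1 (0.917) and Prr14l (0.911). The hundredth highest r was 0.967 for Arid1b, 0.766 for Arid1a and 0.702 for Arid2. Pbrm1, a partner of Arid2 in PBAF, was thus the gene with the next to highest r. The PBAF subunits Brd7 and Phf10 had lower r with Arid2, at 0.337 and 0.282. The 18 libraries come from 6 mice and fall into 3 populations, which share kit and marrow, and these values describe that spread and are given without a p.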

How the data were processed

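RNA-seq of 22 sorted mouse bone marrow libraries was analysed. The authors pseudoaligned 100 bp paired-end reads with kallisto to Ensembl 84 transcripts (GRCm38/mm10) and deposited estimated counts and TPM for each transcript of each library, without pooling. DESeq2 is also named in the submitters' processing notes.

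Transcripts were paired with genes through GENCODE M21 by identifier (114200 of 115088, 99.2%). The unpaired rest took 0.233% to 0.363% of the counts. Estimated counts and TPM were summed per gene, and counts were rounded. KO and WT were compared within each population by edgeR's quasi-likelihood test (edgeR 4.0.16, R 4.3.3) with TMM scaling and filterByExpr, and p-values were adjusted by Benjamini-Hochberg over all genes tested. Calls were made at an FDR of 0.1. WT populations and interactions were fitted with the mouse as a block. Paralog ratios were compared by two-sided exact permutation tests (scipy 1.17.1). Levels in CPM use TMM. The scripts were tested on simulated data.

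The 10 members were listed by name and not by any measured value. Earlier results of these data were known when the members, the other gene lists and the markers were drawn up. All 10 members were described. Of the 20 other SWI/SNF and 12 other ARID-domain genes, at most the 3 largest rises and the 3 largest falls per population were eligible to be named, among called genes whose groups did not overlap. For likeness the 3 genes with the highest r were named, on log2 CPM with a prior count of 2.

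Pairs of WT and KO mice were taken from the order of columns in the study's supplementary tables, not from the labels. Deviations from the group means correlated within all 9 progenitor pairs (r from 0.173 to 0.626). In MEPs, however, WT mouse 300 correlated more with KO mouse 308 (0.367) than with its pair, KO mouse 301 (0.173). KO mouse 301 correlated more with WT mouse 309 (0.201). In LT-HSCs r was 0.140 in both pairs. With 2 libraries a group the deviations mirror each other, so 1 of the 2 possible pairings gives a positive r, and this value cannot decide the pairing. Replicates are separate mice. As alternatives, each library was left out in turn, and the fits were repeated with DESeq2 1.42.0, with the block, with an offset for effective length, without a filter and with size factors from the median of ratios. Library totals were added after seeing the data. Depth was 40803835 to 65930565 estimated counts per library after rounding per gene.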

Additional observations from a re-analysis of the deposited data

Results flagged for a closer look

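Among the 10 genes 5 interactions of genotype with progenitor population passed an FDR of 0.1, a test of whether the KO effect on a gene differed between 2 populations of the same mice. For MEPs less CMPs 2 of the 10 genes were called, where 13% of all genes were, for MEPs less GMPs 2 where 26.8% were, and for GMPs less CMPs 1 where 21% were, so the counts lie near the share of all genes. Of the 5 calls, that of Phf10 for MEPs less CMPs and that of Arid1b held without each mouse in turn, and the other 3 were lost without some single mice. Phf10 differed between MEPs and CMPs by -0.35 (adjusted p = 0.0125, edgeR's quasi-likelihood test) and between MEPs and GMPs by -0.21 (adjusted p = 0.0779). All 3 KO CMP libraries had more Phf10 than all 3 WT CMP libraries, and all 3 KO MEP libraries had less than all 3 WT MEP libraries. Bcl7a differed between MEPs and CMPs by -0.24 (adjusted p = 0.0393), with KO libraries all above WT in CMPs and all below WT in MEPs. Arid1b differed between MEPs and GMPs by 0.34 (adjusted p = 0.0132), with KO libraries all below WT in GMPs and overlapping WT in MEPs. Brd9 differed between GMPs and CMPs by 0.29 (adjusted p = 0.0463). Markers of other cells had interactions in the same libraries. For MEPs less CMPs 4 of 5 MEP markers, 1 of 5 erythroblast markers and 1 of 5 neutrophil markers were lower, and all 3 megakaryocyte markers, 2 of 6 LT-HSC markers and 1 of 5 GMP markers were higher. For MEPs less GMPs 4 of 5 GMP markers and 4 of 5 neutrophil markers were lower, and all 3 megakaryocyte markers, 4 of 6 LT-HSC markers and 2 of 5 erythroblast markers were higher, while 2 of 5 MEP markers were higher and 1 lower. For GMPs less CMPs all 5 GMP markers and 3 of 5 neutrophil markers were higher, and 4 of 5 erythroblast markers, 4 of 5 MEP markers, 2 of 4 basophil and mast cell markers and 1 of 6 LT-HSC markers were lower. The remaining lists had at most 1 called marker in each direction. Their part in these results was not tested.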

How the results depend on the processing

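Of 1090 values of the 10 genes under alternatives, 939 kept their direction and their side of the threshold, 57 lost a call, 42 gained a call and 52 changed sign, of which 2 had a call on either side. The cause was not tested. Leaving out each library gave 0 to 2 called genes in LT-HSCs, 1 to 3 in CMPs, 2 to 4 in GMPs and 4 to 7 in MEPs for KO against WT, 3 to 6, 7 to 9 and 5 to 6 for WT GMPs against CMPs, MEPs against CMPs and MEPs against GMPs, and 0 to 2, 1 to 4 and 1 to 2 for the interactions in that order. With the replicate block of paired mice, 0, 4, 4 and 9 genes were called in LT-HSCs, CMPs, GMPs and MEPs. Without the block of mouse the counts were 3, 7 and 7 for WT populations and 1, 2 and 2 for the interactions. DESeq2 called 1 gene in LT-HSCs and 4 in the interaction of MEPs with GMPs, where median-of-ratios size factors gave 4 and no filter and the offset for effective length 1 each. No filter gave 1 in the interaction of MEPs with CMPs. Shares of all genes called are given above only for the block in KO against WT and for DESeq2 in LT-HSCs. For the other alternatives they are not given, so these counts cannot be set against all genes. The KO minus WT log2 ratio of Arid2 to Arid1a plus Arid1b in LT-HSCs was 0.11 with estimated counts in place of TPM, against 0.32 with TPM.

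Leaving out each library or mouse in turn changed the sign of these log2 fold changes, with the range over all such fits: for Arid1b (-0.027 to 0.13) and Brd9 (-0.086 to 0.027) in KO against WT in CMP, for Arid1b (-0.29 to 0.16), Brd7 (-0.12 to 0.31), Dpf2 (-0.16 to 0.35) and Phf10 (-0.50 to 0.71) in KO against WT in LT-HSC, for Arid2 (-0.095 to 0.026) and Brd7 (-0.049 to 0.15) in GMP against CMP in WT, for Arid2 (-0.022 to 0.10), Bcl7a (-0.029 to 0.025) and Ss18 (-0.086 to 0.0016) in KO against WT in GMP, for Arid2 (-0.12 to 0.0053) and Brd9 (-0.045 to 0.12) in MEP against CMP in WT, for Arid2 (-0.066 to 0.060), Brd7 (-0.083 to 0.11) and Pbrm1 (-0.090 to 0.051) in the interaction for GMP against CMP, for Brd7 (-0.0011 to 0.11) and Dpf2 (-0.075 to 0.016) in the interaction for MEP against GMP, and for Dpf2 (-0.0036 to 0.13) in MEP against GMP in WT.

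Library totals in place of TMM, added after seeing the data, moved the median of all genes by -0.21 in LT-HSCs, -0.10 in GMPs, -0.14 and -0.20 in WT GMPs and MEPs against CMPs, and -0.13 and 0.11 in the interactions of GMPs with CMPs and MEPs with GMPs. They gave 8 called genes for WT GMPs against CMPs and 3 for that interaction, which were Arid1b, Phf10 and Bcl7a, while the call of Brd9 was lost (0.15, adjusted p = 0.283). The share of all genes called by these fits is not given, so the counts cannot be set against it. Signs changed for Pbrm1 (-0.0070), Brd7 (-0.093), Dpf2 (-0.11) and Ss18 (-0.0052) in LT-HSCs, for Arid2 (-0.051), Pbrm1 (-0.016), Brd7 (-0.0021), Phf10 (-0.015) and Bcl7a (-0.093) in GMPs, for Brd7 (-0.11) in WT GMPs and Brd9 (-0.16, adjusted p = 0.0641) in WT MEPs against CMPs, for Brd7 (-0.10), Dpf2 (-0.00076) and Ss18 (-0.051) in the interaction of GMPs with CMPs, and for Dpf2 (0.063) in that of MEPs with GMPs. Other sign changes were Phf10 in LT-HSCs without a filter (0.0011) and with the block (0.11), Bcl7a in GMPs (-0.0077) and Brd7 in the interaction of MEPs with GMPs (-0.17) with the offset, and Arid2 with median-of-ratios size factors and DESeq2 in WT GMPs against CMPs (0.0076 and 0.0078) and in the interaction of GMPs with CMPs (0.012 and 0.010).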
